A study of Mus musculus with 36 samples.

Results

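The subject is the 4 h step from 4 pm to 8 pm in the mouse heart, measured in hearts without Klf15, a zinc-finger transcription factor of the Kruppel-like family, and in control hearts. It covers 12 of the 36 RNA libraries of the study: 3 of cK15 hearts at 8 pm, 3 of cK15 hearts at 4 pm, 3 of control hearts at 8 pm and 3 of control hearts at 4 pm. The cK15 mice are labelled as KLF15 knockouts. The labels do not say which cells lost the gene or whether these mice carry a Cre transgene. The control mice carried α-MHC cre, a recombinase driven by a promoter of heart muscle cells, and are labelled with no Klf15 deletion. All were C57BL/6J males of 11 to 12 weeks under 12 h of light and 12 h of dark, and RNA came from the apex of the heart. No source used here gives the clock hour of lights-on. The labels do not tie the 3 libraries of a group to separate animals, so p-values measure library-to-library spread, some of which may be technical. The values are FPKM, fragments scaled to gene length and library total. Of 23352 gene entries, 10600 were tested, and every gene was eligible.

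The heart holds its own circadian clock. CLOCK and BMAL1 (gene Arntl) bind E-boxes, short DNA elements with the letters CACGTG, and switch on the Per and Cry genes, whose proteins return to silence CLOCK and BMAL1. A second loop runs through the receptors REV-ERB (genes Nr1d1 and Nr1d2) and ROR, which repress and activate Arntl. Laboratory mice are active in the dark, and their adrenal glucocorticoid hormones are known to rise before that phase begins.

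The files do not give the sizes of the libraries. Summed FPKM, which is already scaled to library total and does not measure size, ran between 568203 and 667609. In each library 10353 to 10724 genes reached 1 FPKM. In 7 libraries 22.6% to 33.9% of the low values compared stood in 1 common ratio to control 4 pm replicate 3. With that library included, these 8 had relative depths of 0.781 to 1.15, while the absolute depth is unknown. The other 4, which are 1 library of each group (cK15 8 pm replicate 4, cK15 4 pm replicate 1, control 8 pm replicate 4 and control 4 pm replicate 2), stood apart. In them the share of summed FPKM held by the 10 most abundant genes was 16.3% to 17.7%, against 22.1% to 24.4% in the 8. The ventricular myosin light chain Myl2, a defining marker of the tissue, was at 29700 to 34929 FPKM in the 4 and 48324 to 66067 FPKM in the 8. Control 8 pm replicate 4 also held 43.0 FPKM of the atrial myosin light chain Myl7 and 27.2 FPKM of Myl4, where the other libraries of the series reached at most 10.02 and 8.21 FPKM. The other atrial markers were not high in that library. Nppa was at 62.1 FPKM there, within its range of 39.3 to 185 FPKM over the 12 libraries. Bmp10 was listed at 0 there, and Sln was listed at 0 in all 12 libraries. Ttn, the giant protein of heart muscle, was listed at 0 in every library, so a listed 0 is not proof of absence.

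Klf15 itself followed the labels. It was at 0.300, 0 and 0.231 FPKM in cK15 hearts at 8 pm, against 0.0997, 0.326 and 0 FPKM in cK15 hearts at 4 pm. In control hearts it was at 1.54, 2.91 and 2.58 FPKM at 8 pm, against 1.19, 1.64 and 0.726 FPKM at 4 pm. The times overlapped in both genotypes. The control step was 0.61 on the log2(FPKM + 1) scale (SE 0.24) and was not called by limma (adjusted p = 0.728).

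In cK15 hearts no gene passed the threshold for a difference between 8 pm and 4 pm, an adjusted p under 0.05 in limma. That is 0 of 10600 genes, or 0%, with 367 genes (3.46%) at an unadjusted p under 0.05 and a smallest adjusted p of 0.277. Without cK15 8 pm replicate 4 the count was 3. In control hearts 14 genes (0.132%) were called. They were 10 higher at 8 pm (0.0943%) and 4 lower (0.0377%), with 512 genes (4.83%) at an unadjusted p under 0.05. The genes that rose were Per2, Zbtb16, Hsd11b1, Adh1, Aldh1a1, Sult1a1, Fmo1, Gsta3, Mthfd1l and Prickle3. The genes that fell were Slc41a3, Fbn1, Col3a1 and the ribosomal precursor Rn45s. Every fold change is a difference of log2(FPKM + 1), and adding 1 shrinks the change of genes of low level.

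The control count rested on few libraries. It was 3 without control 4 pm replicate 4, 5 without control 4 pm replicate 2 or control 8 pm replicate 2, 6 without control 8 pm replicate 4, and 9 without cK15 8 pm replicate 1 or cK15 4 pm replicate 4. Fmo1 was called in 23 of 24 alternative settings and Per2 in 22 of 23, whereas Gsta3 was called in 10 of 24 and Mthfd1l in 9 of 23.

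Among the clock genes Per2, a repressor of CLOCK and BMAL1, was the gene called. It was at 8.51, 8.47 and 8.74 FPKM in cK15 hearts at 8 pm, against 6.57, 6.24 and 6.15 FPKM in cK15 hearts at 4 pm. In control hearts Per2 was at 8.15, 8.96 and 7.18 FPKM at 8 pm, against 3.96, 3.95 and 3.27 FPKM at 4 pm. All libraries of 8 pm lay above all of 4 pm in both genotypes, and the cK15 libraries of 4 pm lay above the control libraries of 4 pm. The step was 0.39 in cK15 (SE 0.16; limma adjusted p = 1) and 0.94 in control (SE 0.16; limma adjusted p = 0.00399).

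Cry1, which encodes the partner of PER proteins in repression, was at 8.41, 5.23 and 8.89 FPKM in cK15 hearts at 8 pm, against 6.01, 4.26 and 5.67 FPKM in cK15 hearts at 4 pm. In control hearts Cry1 was at 6.68, 6.01 and 7.45 FPKM at 8 pm, against 4.44, 2.55 and 3.90 FPKM at 4 pm. The times overlapped in cK15 and not in control, where the step was 0.75 (SE 0.18; limma adjusted p = 0.0838).

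Nr1d1, which encodes the repressor REV-ERB alpha, was at 3.77, 2.57 and 4.98 FPKM in cK15 hearts at 8 pm, against 8.47, 5.92 and 5.85 FPKM in cK15 hearts at 4 pm. In control hearts Nr1d1 was at 3.87, 4.68 and 5.72 FPKM at 8 pm, against 11.9, 9.81 and 9.04 FPKM at 4 pm. Every library of 8 pm lay below every library of 4 pm in both genotypes. The step was -0.71 in cK15 (SE 0.22; limma adjusted p = 1) and -0.97 in control (SE 0.22; limma adjusted p = 0.0739). Nr1d1 overlaps Thra on the other strand, and no source used here says how the authors' counting used strand.

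**Figure D1:**
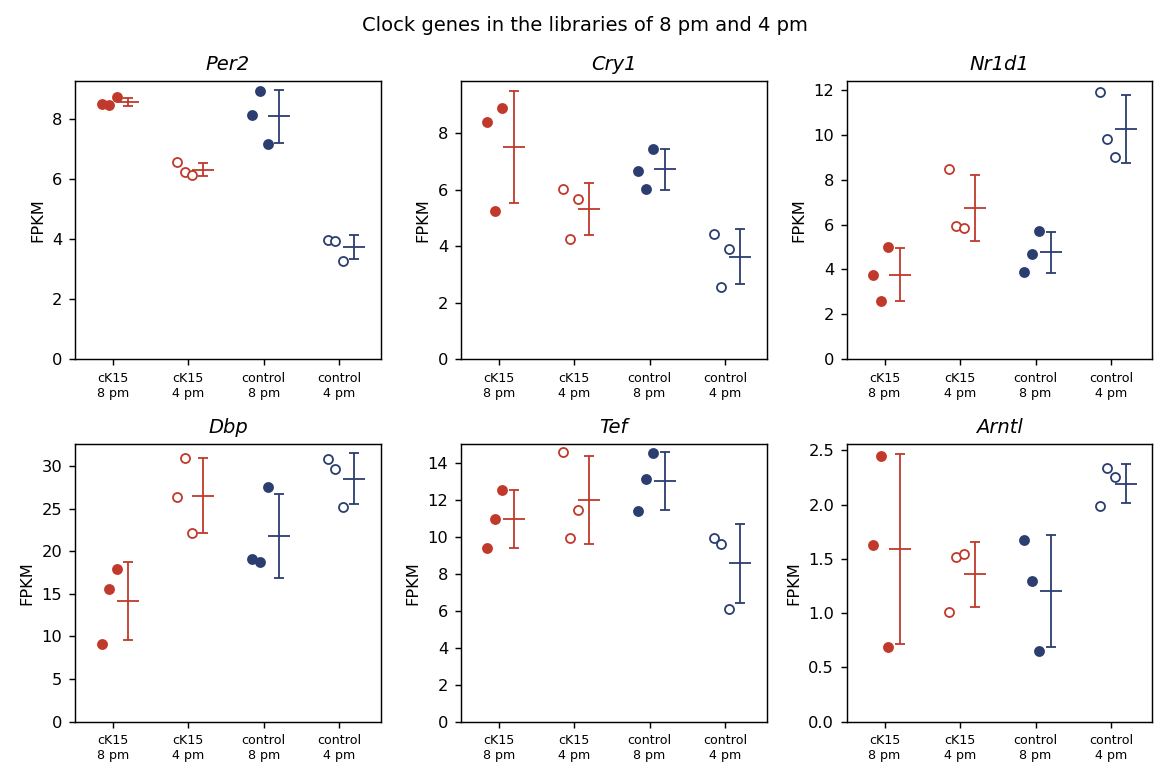
FPKM of 6 clock genes in each library of cK15 hearts (red) and control hearts (blue) at 8 pm (filled points) and 4 pm (open points), with the group mean and SD (n = 3) beside the points. Per2 libraries of 8 pm sit above those of 4 pm in both genotypes and Nr1d1 libraries below them; Cry1 and Tef separate by time in control only.

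The other clock genes did not pass in either genotype. Of the 7 tested repressors (Per1, Per2, Per3, Cry1, Cry2, Bhlhe40 and Bhlhe41), 5 had all control libraries of 8 pm above those of 4 pm and 1 did in cK15. Over all genes tested, 365 (3.44%) did so in cK15 and 467 genes (4.41%) in control. Bhlhe40, a repressor that competes for E-boxes, lay the other way. It was at 4.45, 3.79 and 4.19 FPKM in cK15 hearts at 8 pm, against 7.57, 5.77 and 5.31 FPKM in cK15 hearts at 4 pm. In control hearts Bhlhe40 was at 4.45, 3.41 and 6.82 FPKM at 8 pm, against 10.2, 8.98 and 6.39 FPKM at 4 pm. The times were separate in cK15 and overlapped in control, with steps of -0.48 (SE 0.23; limma adjusted p = 1) and -0.71 (SE 0.23; limma adjusted p = 0.467). Per1, the first Per gene to respond to many stimuli, was at 6.05, 6.40 and 7.86 FPKM in cK15 hearts at 8 pm, against 9.58, 7.67 and 8.54 FPKM in cK15 hearts at 4 pm. In control hearts Per1 was at 6.88, 6.90 and 8.70 FPKM at 8 pm, against 5.51, 4.35 and 6.59 FPKM at 4 pm. The control libraries separated by time with 8 pm on top, while the cK15 libraries overlapped with the lower mean at 8 pm. The difference of the Per1 steps, cK15 minus control, was -0.70 with a 95% interval between -1.59 and 0.18 (limma adjusted p = 1).

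Tef, an activator that binds D-boxes, showed the same arrangement. It was at 9.42, 11.0 and 12.5 FPKM in cK15 hearts at 8 pm, against 14.6, 9.92 and 11.5 FPKM in cK15 hearts at 4 pm. In control hearts Tef was at 11.4, 13.2 and 14.5 FPKM at 8 pm, against 9.96, 9.63 and 6.11 FPKM at 4 pm. Times overlapped in cK15 and did not in control, and the difference of steps was -0.68 with a 95% interval between -1.26 and -0.10 (limma adjusted p = 1). Its relative Dbp was at 9.09, 15.5 and 17.97 FPKM in cK15 hearts at 8 pm, against 26.3, 30.9 and 22.2 FPKM in cK15 hearts at 4 pm. In control hearts Dbp was at 19.1, 18.7 and 27.5 FPKM at 8 pm, against 30.8, 29.6 and 25.2 FPKM at 4 pm. The times separated in cK15 and overlapped in control, with steps of -0.89 (SE 0.26; limma adjusted p = 1) and -0.39 (SE 0.26; limma adjusted p = 1). Dbp overlaps Sphk2 on the other strand.

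Arntl was near the bottom of its daily range at both times. It was at 1.63, 2.45 and 0.692 FPKM in cK15 hearts at 8 pm, against 1.01, 1.52 and 1.55 FPKM in cK15 hearts at 4 pm. In control hearts Arntl was at 1.68, 1.29 and 0.649 FPKM at 8 pm, against 1.99, 2.33 and 2.25 FPKM at 4 pm. The cK15 times overlapped, and the control libraries of 8 pm lay below those of 4 pm. The lowest of its 6 daily means was the 4 pm mean in cK15 and the 8 pm mean in control. Over the 3 clock lists together, 16 tested genes had a median step of -0.10 in cK15 and 0.25 in control, beside 0.01 and -0.01 over all genes tested. The medians differ in sign, but no clock gene passed in the test of the difference.

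Zbtb16 (PLZF), a zinc-finger repressor and a glucocorticoid target, had the highest control fold change among the called genes. It was at 14.7, 11.7 and 11.1 FPKM in cK15 hearts at 8 pm, against 6.10, 5.05 and 6.48 FPKM in cK15 hearts at 4 pm. In control hearts Zbtb16 was at 12.7, 10.7 and 12.8 FPKM at 8 pm, against 2.997, 3.59 and 3.68 FPKM at 4 pm. Zbtb16 lies on chromosome 9 at 48654297 to 48836222 (GRCm38, GENCODE M21). Its times were far apart in both genotypes. The step was 0.97 in cK15 (SE 0.30; limma adjusted p = 1) and 1.56 in control (SE 0.30; limma adjusted p = 0.0136), and the difference, -0.59, had a 95% interval between -1.45 and 0.27.

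Hsd11b1, the enzyme that regenerates active glucocorticoid inside cells, was at 18.4, 28.4 and 21.3 FPKM in cK15 hearts at 8 pm, against 21.4, 23.3 and 21.1 FPKM in cK15 hearts at 4 pm. In control hearts Hsd11b1 was at 23.7, 20.04 and 31.6 FPKM at 8 pm, against 13.8, 9.62 and 8.21 FPKM at 4 pm. The cK15 times overlapped, all 6 cK15 libraries lay above the control libraries of 4 pm, and the control times were separate. The step was 0.03 in cK15 (SE 0.20; limma adjusted p = 1) and 1.18 in control (SE 0.20; limma adjusted p = 0.00399). The difference of -1.15 had a 95% interval between -1.73 and -0.57, and over all genes it was not called (limma adjusted p = 1). Hsd11b1 overlaps Lamb3 on the other strand.

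Of the 16 glucocorticoid-responsive genes tested, 2 rose in control (Zbtb16 and Hsd11b1), against 10 of 10600 genes (0.0943%), and 0 in cK15, where limma called none of all genes. Their median step was 0.19 in cK15 and 0.35 in control, beside 0.01 and -0.01 over all genes. All 3 libraries of 8 pm lay above those of 4 pm for 4 of them in cK15, for 6 in control and for 4 in both genotypes (Zbtb16, Ddit4, Glul and Pik3r1). Over all genes tested, 3.44% did so in cK15, 4.41% in control and 58 genes (0.547%) in both. In the other direction 1 of the 16, the metallothionein Mt2, had all cK15 libraries of 8 pm below those of 4 pm (2.96% of all genes), and none did in control (4.42%). Ddit4, Glul, Pik3r1 and Mt2 are named here after their values were seen. Ddit4, an inhibitor of the growth kinase mTOR, was at 4.84, 3.68 and 4.54 FPKM in cK15 hearts at 8 pm, against 3.02, 3.42 and 2.16 FPKM in cK15 hearts at 4 pm. In control hearts Ddit4 was at 3.24, 2.53 and 5.48 FPKM at 8 pm, against 2.10, 0.574 and 1.43 FPKM at 4 pm. Glul, glutamine synthetase, was at 158, 179 and 182 FPKM in cK15 hearts at 8 pm, against 149, 121 and 127 FPKM in cK15 hearts at 4 pm, and at 180, 202 and 238 FPKM in control hearts at 8 pm, against 135, 128 and 126 FPKM in control hearts at 4 pm. Neither passed the threshold in limma. Tsc22d3 (GILZ), another well-known target, separated by time in control only, and Fkbp5 overlapped in both genotypes.

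The other genes that rose in control were Adh1, Aldh1a1, Fmo1, Gsta3, Sult1a1, Mthfd1l, a mitochondrial enzyme of folate metabolism, and Prickle3, a protein of the planar polarity family. Adh1, an alcohol dehydrogenase that also oxidises retinol, was at 30.9, 48.8 and 41.8 FPKM in cK15 hearts at 8 pm, against 21.5, 33.8 and 31.5 FPKM in cK15 hearts at 4 pm. In control hearts Adh1 was at 48.7, 54.0 and 52.9 FPKM at 8 pm, against 22.4, 26.1 and 22.5 FPKM at 4 pm. The times overlapped in cK15 and were apart in control, where the step was 1.10 (SE 0.21; limma adjusted p = 0.0136).

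Aldh1a1, which turns retinal into retinoic acid, was at 39.4, 44.3 and 35.4 FPKM in cK15 hearts at 8 pm, against 26.9, 37.2 and 27.3 FPKM in cK15 hearts at 4 pm. In control hearts Aldh1a1 was at 48.0, 49.7 and 52.1 FPKM at 8 pm, against 30.0, 32.1 and 26.0 FPKM at 4 pm. Again the cK15 times overlapped and the control times did not, with a control step of 0.75 (SE 0.16; limma adjusted p = 0.0416). Aldh1a1 and the glutathione transferase Gsta3 have close copies in the genome, so their values are uncertain where reads were split.

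Fmo1, a flavin monooxygenase that oxidises drugs and amines, was at 25.6, 27.1 and 22.1 FPKM in cK15 hearts at 8 pm, against 15.9, 19.7 and 18.7 FPKM in cK15 hearts at 4 pm. In control hearts Fmo1 was at 27.4, 28.8 and 25.6 FPKM at 8 pm, against 15.6, 16.3 and 19.6 FPKM at 4 pm. The times did not overlap in either genotype. The step was 0.44 in cK15 (SE 0.10; limma adjusted p = 0.568) and 0.64 in control (SE 0.10; limma adjusted p = 0.0039).

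Gsta3 and Sult1a1, a sulfotransferase, were also separate by time in both genotypes. Their steps were 0.89 and 0.50 in cK15 (SE 0.22 and 0.16) and 1.06 and 0.74 in control (SE 0.22 and 0.16). Mthfd1l was at 3.06, 2.19 and 3.71 FPKM in cK15 hearts at 8 pm, against 3.20, 2.04 and 3.21 FPKM in cK15 hearts at 4 pm, with overlap. In control hearts it was at 4.74, 4.70 and 3.56 FPKM at 8 pm, against 2.51, 1.71 and 2.32 FPKM at 4 pm, with none.

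**Figure D2:**
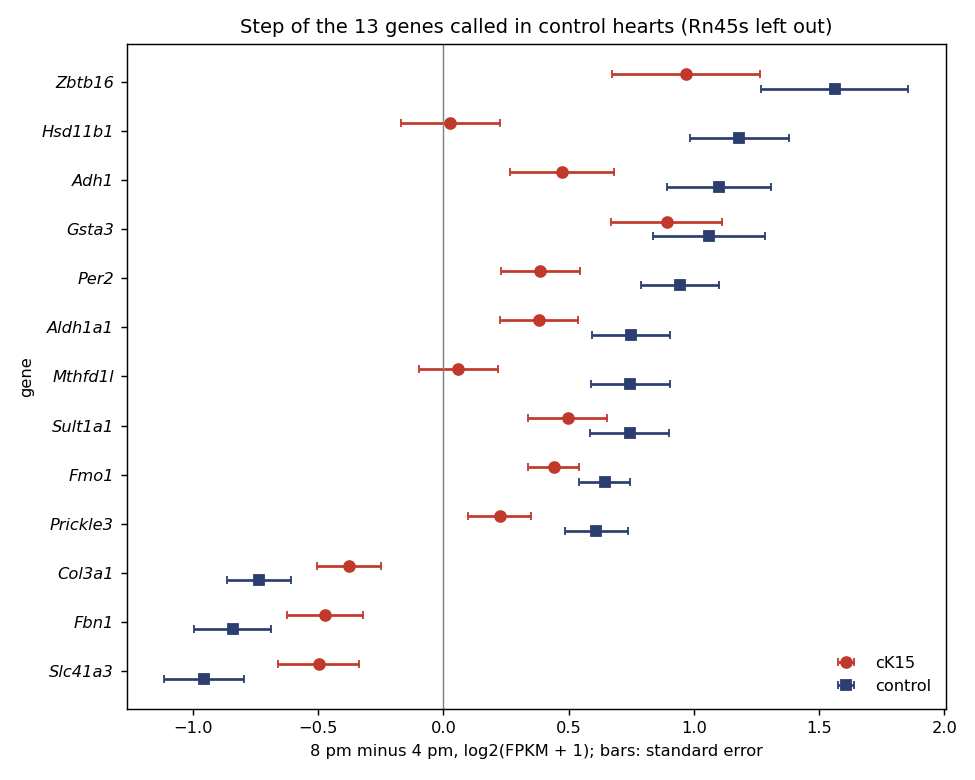
Step from 4 pm to 8 pm, as 8 pm minus 4 pm in log2(FPKM + 1), for the 13 genes called in control other than Rn45s, with cK15 hearts as red circles above control hearts as blue squares; bars are standard errors from the limma fit. The cK15 value lies on the same side of 0 for all 13 genes, nearer to 0 for each; Hsd11b1 is at 0.03 in cK15 and 1.18 in control.

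Slc41a3, a magnesium transporter of mitochondria, had the lowest control fold change among the called genes apart from Rn45s. It was at 11.3, 12.3 and 14.2 FPKM in cK15 hearts at 8 pm, against 18.4, 21.1 and 15.5 FPKM in cK15 hearts at 4 pm. In control hearts Slc41a3 was at 10.4, 12.3 and 16.4 FPKM at 8 pm, against 30.7, 26.3 and 21.2 FPKM at 4 pm. The libraries of 8 pm had overlapping ranges in the 2 genotypes and lay below those of 4 pm in both. The step was -0.50 in cK15 (SE 0.16; limma adjusted p = 1) and -0.96 in control (SE 0.16; limma adjusted p = 0.00399). Slc41a3 lies on chromosome 6 at 90604725 to 90646412 (GRCm38, GENCODE M21), where the first base of the gene is 129487 bases after the end of Klf15.

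The promoters of Slc41a3 and Adh1, the only control-called genes of those matched that hold an E-box, are shown with that of Klf15, which holds 3. They are RefSeq windows of 300 bases on GRCm38.p6, from 250 bases before to 50 after an annotated start, 5′ to 3′ on the + strand in each case, at chr6:90618996-90619295, chr3:138277335-138277634 and chr6:90462326-90462625. The windows of Slc41a3 and Adh1 belong to starts that lie 14521 and 16594 bases inside the genes as GENCODE M21 places them, while the Klf15 window belongs to the first base of the gene. Capitals mark CACGTG, which reads the same on both strands.
Slc41a3: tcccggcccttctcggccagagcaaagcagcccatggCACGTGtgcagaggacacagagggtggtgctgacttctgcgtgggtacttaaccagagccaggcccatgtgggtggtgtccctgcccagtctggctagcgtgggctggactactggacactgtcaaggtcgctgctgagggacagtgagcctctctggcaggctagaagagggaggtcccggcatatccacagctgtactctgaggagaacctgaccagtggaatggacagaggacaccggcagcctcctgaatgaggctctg
Adh1: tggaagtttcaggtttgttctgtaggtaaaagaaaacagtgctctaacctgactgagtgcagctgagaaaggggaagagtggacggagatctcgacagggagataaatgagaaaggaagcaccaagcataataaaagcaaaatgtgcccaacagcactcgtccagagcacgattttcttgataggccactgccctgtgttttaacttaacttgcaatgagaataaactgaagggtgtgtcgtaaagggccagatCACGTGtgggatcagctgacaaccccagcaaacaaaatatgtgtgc
Klf15: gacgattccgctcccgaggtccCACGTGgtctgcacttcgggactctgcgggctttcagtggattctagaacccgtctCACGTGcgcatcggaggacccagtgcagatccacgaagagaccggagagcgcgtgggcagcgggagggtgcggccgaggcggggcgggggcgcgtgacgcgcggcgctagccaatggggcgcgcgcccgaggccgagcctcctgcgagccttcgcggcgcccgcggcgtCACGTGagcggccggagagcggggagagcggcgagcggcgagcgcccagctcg
Of the 10 genes that rose in control, 7 matched a window and 1 held an E-box, and of the 4 that fell, 3 matched and 1 held it. Among the tested genes with a window, 963 of 7945 held it (12.1%), and 7.15% of all 32851 windows did. No window of a control-called gene held a D-box, a heat shock element or a glucocorticoid element, all searched on both strands; 69, 51 and 34 of the 7945 did. Per2, Zbtb16 and Fmo1 did not match a window.

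Of 23 tested genes of the extracellular matrix, 1 fell in control, against 4 of 10600 genes (0.0377%), and 0 in cK15, where limma called none of all genes. The gene was Col3a1, type III collagen, and Fbn1, the microfibril protein fibrillin, which is not on that list, fell in control too. Col3a1 was at 70.6, 77.1 and 94.3 FPKM in cK15 hearts at 8 pm, against 91.2, 111 and 112 FPKM in cK15 hearts at 4 pm. In control hearts Col3a1 was at 96.1, 126 and 134 FPKM at 8 pm, against 193, 181 and 216 FPKM at 4 pm. The cK15 times overlapped by the highest library of 8 pm, and the control times were apart. The step was -0.38 in cK15 (SE 0.13; limma adjusted p = 1) and -0.73 in control (SE 0.13; limma adjusted p = 0.00585).

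Fbn1 was at 17.3, 15.1 and 18.1 FPKM in cK15 hearts at 8 pm, against 23.8, 20.7 and 27.0 FPKM in cK15 hearts at 4 pm. In control hearts Fbn1 was at 18.5, 21.3 and 23.9 FPKM at 8 pm, against 38.3, 33.0 and 45.7 FPKM at 4 pm. Libraries of 8 pm lay below those of 4 pm in both genotypes, with steps of -0.47 in cK15 (SE 0.15; limma adjusted p = 1) and -0.84 in control (SE 0.15; limma adjusted p = 0.00882).

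Of the 23 matrix genes, 11 had every control library of 8 pm below every one of 4 pm, against 468 (4.42%) of all genes tested. In cK15 3 did, against 314 (2.96%), and in both genotypes 2 did (Col4a2 and Spon2), against 37 (0.349%). The median step over the 23 was -0.14 in cK15 and -0.32 in control, beside 0.01 and -0.01 over all genes. The 11 were Col3a1, Col4a1, Col4a2, Col5a1, Col5a2, Col5a3, Col6a1, Col6a2, Col15a1, Timp1 and Spon2, and the 10 other than Col3a1, named after their values were seen, did not pass the threshold. The protease inhibitor Timp1 was at 1.77, 4.65 and 3.77 FPKM in cK15 hearts at 8 pm, against 3.81, 6.72 and 3.14 FPKM in cK15 hearts at 4 pm. In control hearts Timp1 was at 2.27, 3.27 and 5.19 FPKM at 8 pm, against 8.87, 7.63 and 13.7 FPKM at 4 pm. Col1a1, the main fibrillar collagen, overlapped in control. There 1 library of 4 pm reached 19.7 FPKM and the others were at 6.35 and 9.63 FPKM. In cK15 hearts Col1a1 was separate by time with 8 pm lower. Its cK15 values were 4.73, 4.27 and 5.26 FPKM at 8 pm, against 6.59, 7.04 and 8.47 FPKM at 4 pm.

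The summed FPKM of 9 macrophage markers was 154.85 to 171.34 in cK15 hearts at 8 pm, against 171.17 to 241.11 in cK15 hearts at 4 pm. In control hearts this sum was 179.93 to 240.76 at 8 pm, against 233.67 to 259.45 at 4 pm. The sum of 8 fibroblast markers, Col1a1 among them, was 1514.9 to 1633.3 FPKM in control hearts at 8 pm, against 1520.4 to 1794.5 FPKM in control hearts at 4 pm. In cK15 hearts the fibroblast sum was 1318.5 to 1508.9 FPKM at 8 pm, against 1261.3 to 1419.2 FPKM at 4 pm, with the higher median at 8 pm. Both sums overlap between times, and none of these markers was at 0 in all libraries of a group. The fibroblast sum is mostly Dcn and Gsn. Of 9 tested macrophage markers, 2 in control and 1 in cK15 had every library of 8 pm below those of 4 pm. Of 7 tested fibroblast markers 1 did in each genotype, and no marker of either list lay above. Over all genes 4.42% lay below in control and 2.96% in cK15. The part of these markers in the matrix result was not tested. In tissue, fewer cells of a type and less RNA per cell cannot be told apart.

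**Figure D3:**
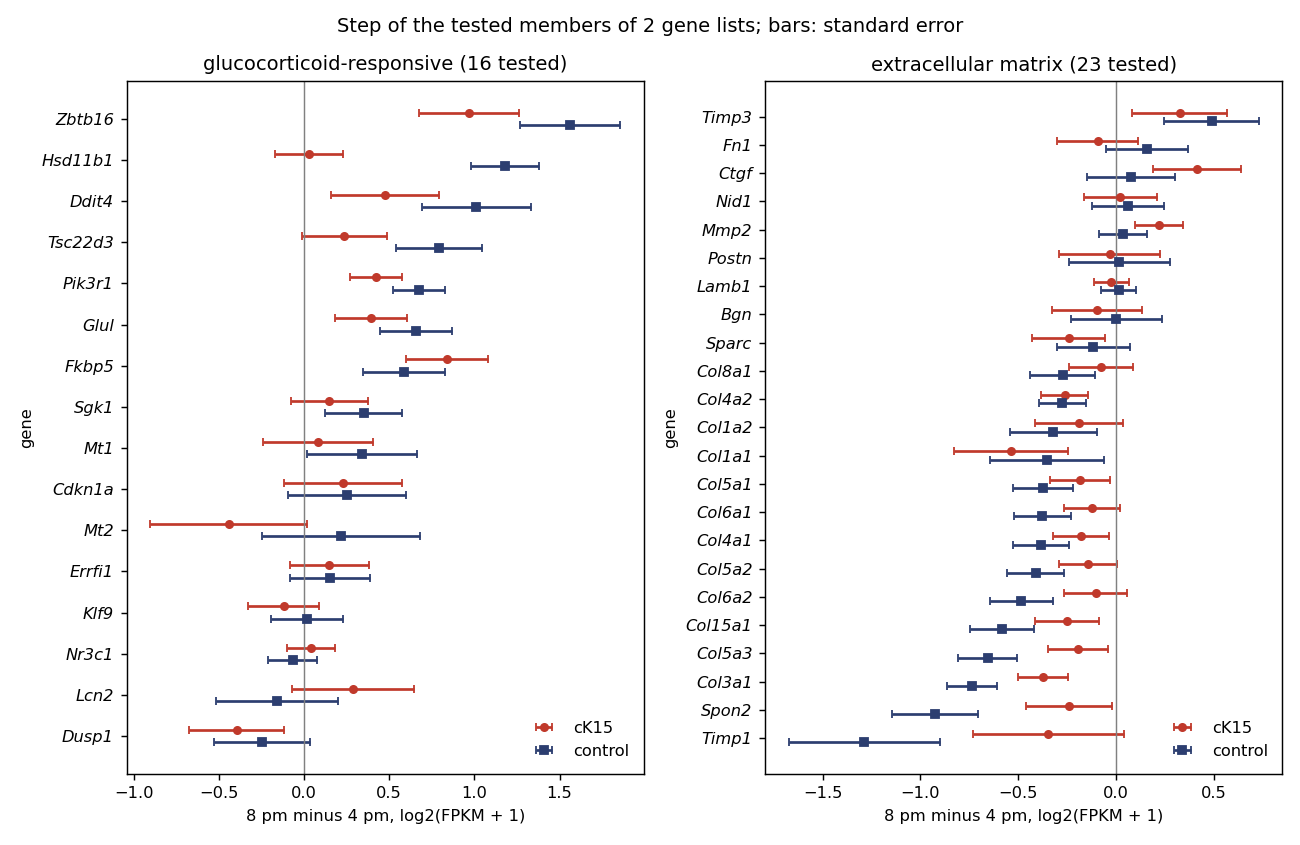
Step from 4 pm to 8 pm, as 8 pm minus 4 pm in log2(FPKM + 1), for every tested glucocorticoid-responsive gene (left, 16 genes) and extracellular matrix gene (right, 23 genes), with cK15 as red circles above control as blue squares and standard errors as bars. Zbtb16 and Hsd11b1 top the left panel in control at 1.56 and 1.18, and Timp1 is lowest on the right in control at -1.29.

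The test of the difference between the steps called 1 of 10600 genes (0.00943%), Rn45s, with 274 genes (2.58%) at an unadjusted p under 0.05. That call was lost in 10 of the 12 fits that left out 1 library, all but those without cK15 4 pm replicate 1 or cK15 8 pm replicate 3, and also with quantile normalization. Without Rn45s the smallest adjusted p was 0.4996. The median standard error of the difference was 0.25 on the log2 scale, against 0.18 for a step, which sets the size of difference that 3 libraries a group could show. Of the 13 other genes called in control, 13 had the same sign in cK15, and 8 were separate by time in cK15 in the same direction. Over all genes tested, 3.44% were separate in cK15 with 8 pm on top and 2.96% with 8 pm below. Of the 13, 5 had an unadjusted p under 0.05 for the difference in limma (Per2, Hsd11b1, Adh1, Mthfd1l and Prickle3). The 13 were chosen on the control step, so a smaller step in cK15 is what that choice favours and is no sign of a difference.

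Rn45s, the precursor of ribosomal RNA from a repeated gene, was at 1004, 230 and 1044 FPKM in cK15 hearts at 8 pm, against 1066, 145 and 232 FPKM in cK15 hearts at 4 pm. In control hearts it was listed at 0 in all 3 libraries of 8 pm, against 270, 297 and 237 FPKM at 4 pm. In the 15 control libraries of the other times it ran between 183.5 and 4518 FPKM. The libraries were depleted of ribosomal RNA, and no fold is given against a listed 0.

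The 6 genes with the smallest p for the difference after Rn45s were Acta2, Hsd11b1, Pygo1, Rara, Pdlim7 and Tex30, and limma called none of them. Acta2, the actin of smooth muscle, was at 73.7, 81.3 and 112 FPKM in cK15 hearts at 8 pm, against 59.8, 39.9 and 47.9 FPKM in cK15 hearts at 4 pm. In control hearts Acta2 was at 61.7, 75.7 and 59.0 FPKM at 8 pm, against 128, 117 and 132 FPKM at 4 pm. The times were separate in both genotypes and in opposite order, which held for 21 genes of all tested (0.198%). The difference was 1.78 with a 95% interval between 0.97 and 2.58 (limma adjusted p = 0.4996), and with only the 12 libraries of these times it passed (limma adjusted p = 0.0307). The sum of 8 smooth muscle and pericyte markers, Acta2 among them, was 444.73 to 573.84 FPKM in cK15 hearts at 8 pm, against 371.31 to 494.50 FPKM in cK15 hearts at 4 pm. In control hearts this sum was 444.33 to 491.32 FPKM at 8 pm, against 466.00 to 600.72 FPKM at 4 pm. These sums overlap in both genotypes. The sum of 7 skeletal muscle markers, nearly all of it the actin Acta1, which heart muscle also expresses, was separate by time in cK15 with 8 pm on top, and in control it overlapped. It was 140.37 to 212.57 FPKM in cK15 hearts at 8 pm, against 92.667 to 107.60 FPKM in cK15 hearts at 4 pm, and 100.73 to 150.54 FPKM in control hearts at 8 pm, against 147.89 to 303.98 FPKM in control hearts at 4 pm. The part of these markers in the Acta2 values was not tested.

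Pdlim7, a scaffold protein on actin fibres, also had opposite order. It was at 32.7, 30.2 and 31.2 FPKM in cK15 hearts at 8 pm, against 26.3, 25.4 and 26.6 FPKM in cK15 hearts at 4 pm. In control hearts Pdlim7 was at 23.1, 18.1 and 19.1 FPKM at 8 pm, against 24.6, 25.1 and 34.1 FPKM at 4 pm. The difference was 0.70 with a 95% interval between 0.28 and 1.12 (limma adjusted p = 1).

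In cK15 hearts the genes with the smallest p for the step included Nr4a1, Ablim3, Bik, Fmo1 and Xdh, named here after their values were seen. Nr4a1, an orphan receptor of the immediate early class, was at 1.11, 0.645 and 0.824 FPKM in cK15 hearts at 8 pm, against 5.39, 3.60 and 3.28 FPKM in cK15 hearts at 4 pm. In control hearts Nr4a1 was at 0.710, 0.128 and 0.803 FPKM at 8 pm, against 0.693, 1.26 and 1.87 FPKM at 4 pm. The 3 cK15 libraries of 4 pm stood above the other 9 libraries. The step was -1.44 in cK15 (SE 0.29; limma adjusted p = 0.277) and -0.55 in control (SE 0.29; limma adjusted p = 1).

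**Figure D4:**
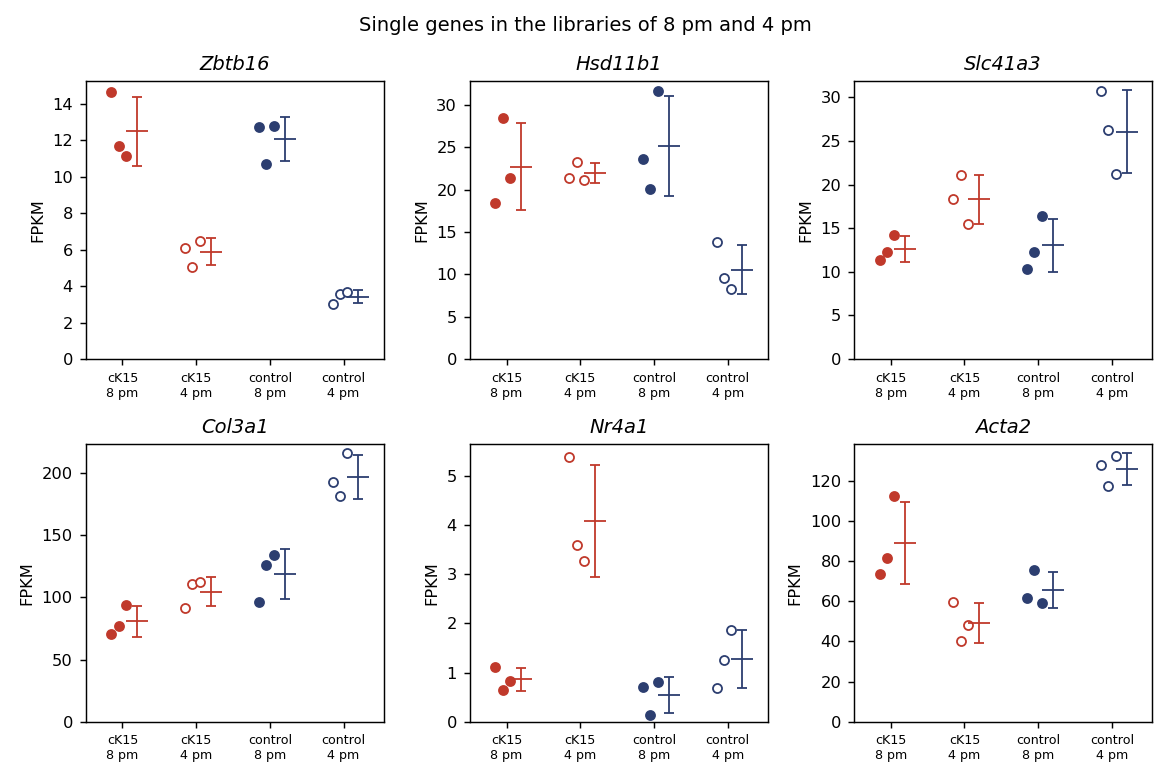
FPKM of 6 genes in each library of cK15 hearts (red) and control hearts (blue) at 8 pm (filled points) and 4 pm (open points), with the group mean and SD (n = 3) beside the points. Zbtb16 and Slc41a3 separate by time in both genotypes and Hsd11b1 in control only; Nr4a1 separates in cK15 only, and Acta2 in opposite order in the 2 genotypes.

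The mean of the 2 steps was tested as well, an alternative added after the steps within each genotype had been seen. It averages the 2 steps, so a call can rest mostly on 1 genotype and does not by itself show a shared step. The mean called 27 genes (0.255%), 20 higher at 8 pm (0.189%) and 7 lower (0.066%). Rn45s was among the 7, with steps of opposite sign in the 2 genotypes. Of the 27, 12 were also called in control, 26 had the same sign in both genotypes and 20 were separate by time in both. Over all genes tested, 0.547% were separate in both with 8 pm on top and 0.349% with 8 pm below. The 27 were chosen on the average of these same steps, which favours a shared sign and separation, so these counts are a description and no test. Hsd11b1 and Mthfd1l were called in control and not in the mean. Among clock genes Per2 (0.67, SE 0.11) and Cry1 (0.58, SE 0.13) rose and Nr1d1 fell (-0.84, SE 0.16; limma adjusted p = 0.00203, 0.0332 and 0.0085). The Cry1 call was lost in 9 of 23 alternative settings, 7 of which left out 1 library, with a highest limma adjusted p of 0.331 when only the 12 libraries of these times were used, whereas Per2 was called in 22 of 22 and Nr1d1 in 23 of 23. The count for the mean was 16 without cK15 8 pm replicate 3 or control 8 pm replicate 4, and 17 without control 4 pm replicate 4.

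Genes that only this mean called were Xdh, Herpud1, Pik3r1, Ly6c1, Ablim3, Mcf2l, Map3k6, Rhobtb1, Mxd4, Timp4, Cry1 and 1110034G24Rik, which rose, and Nr1d1, Nr4a1 and Nrp1, which fell. Herpud1, a protein of the pathway that clears misfolded proteins from the endoplasmic reticulum, was at 228, 290 and 247 FPKM in cK15 hearts at 8 pm, against 187, 177 and 166 FPKM in cK15 hearts at 4 pm. In control hearts Herpud1 was at 271, 231 and 276 FPKM at 8 pm, against 165, 164 and 154 FPKM at 4 pm. The times were apart in both, and the mean step was 0.60 (SE 0.11; limma adjusted p = 0.00474). Of 20 tested folding genes of that compartment, Herpud1 alone rose in the mean, against 20 of 10600 genes (0.189%). The median of the mean step over the 20 was -0.11. In control 3 of the 20 had all libraries of 8 pm below those of 4 pm (4.42% of all genes) and 1 above (4.41%). In cK15 these counts were 0 (2.96%) and 1 (3.44%).

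Xdh, xanthine oxidoreductase, the last enzyme of purine breakdown, was at 104, 105 and 94.4 FPKM in cK15 hearts at 8 pm, against 54.4, 61.9 and 76.0 FPKM in cK15 hearts at 4 pm. In control hearts Xdh was at 104, 90.0 and 93.0 FPKM at 8 pm, against 48.1, 61.6 and 62.0 FPKM at 4 pm. At each time the ranges of the genotypes overlapped, and the times were apart, with a mean step of 0.70 (SE 0.11; limma adjusted p = 0.00203). Pik3r1, the regulatory subunit of PI3 kinase in insulin signalling, was at 41.8, 41.4 and 39.6 FPKM in cK15 hearts at 8 pm, against 31.2, 30.3 and 29.4 FPKM in cK15 hearts at 4 pm. In control hearts Pik3r1 was at 39.7, 41.1 and 44.6 FPKM at 8 pm, against 22.9, 27.4 and 27.4 FPKM at 4 pm. The times were apart in both genotypes (mean step 0.55, SE 0.11; limma adjusted p = 0.0143). Of 16 genes of insulin, FOXO and growth signalling tested, Pik3r1 alone rose in the mean, against 20 of 10600 genes (0.189%). Pik3r1 and Sesn1, a brake on mTOR, were separate by time in both genotypes with 8 pm on top, as were 0.547% of all genes. In control 5 of the 16 were separate in that direction (4.41% of all genes) and in cK15 2 were (3.44%). None of the 16 was separate with 8 pm below in either genotype.

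Most other lists had no call in either genotype, in the mean or in the difference. None of the 35 tested genes of PPAR targets and fatty acid oxidation was called; their median step was -0.0018 in cK15 and -0.11 in control. The lists of glucose use (26 tested), branched-chain amino acid breakdown (22), oxidative phosphorylation (20), sarcomere (21), heat shock and cytosolic folding (21), ion channels and calcium handling (22) and cytosolic ribosomal proteins (19) had no call either, with medians between -0.07 and 0.04 in cK15 and control. In these lists 0 to 3 genes a direction and genotype were separate by time. The count of 3 was in control with 8 pm on top, among the 35 genes of PPAR targets and fatty acid oxidation. Over all genes tested, 3.44% were separate with 8 pm on top and 2.96% with 8 pm below in cK15. In control these shares were 4.41% and 4.42%. Lpl, a lipase of the vessel wall that splits lipoprotein fat, was at 344, 356 and 311 FPKM in cK15 hearts at 8 pm, against 361, 386 and 344 FPKM in cK15 hearts at 4 pm, and at 595, 783 and 708 FPKM in control hearts at 8 pm, against 532, 525 and 560 FPKM in control hearts at 4 pm. The times overlapped in cK15 and separated in control, and Lpl was not called.

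Within the day, 8 pm was the peak for most genes that rose in control. Of the 10 genes that rose in control, 9 had the highest of their 6 daily means at 8 pm in both genotypes, Gsta3 being the exception with its control peak at 12 am. For genes chosen on a higher value at 8 pm this is a description and no test. Of the 3 genes other than Rn45s that fell, only Slc41a3 had its lowest mean at 8 pm in both genotypes. Fbn1 did in cK15 and was lowest at 12 am in control, and Col3a1 was lowest at 12 am in both. Zbtb16 averaged 12.5 FPKM in cK15 and 12.1 FPKM in control at 8 pm, and in no other group above 6.93 FPKM. Slc41a3 was highest at 8 am, at 55.2 FPKM in cK15 and 54.1 FPKM in control, and lowest at 8 pm, at 12.6 FPKM in cK15 and 13.01 FPKM in control. Acta2 averaged 89.0 FPKM in cK15 at 8 pm, above its means of 49.2 FPKM at 4 pm and 65.2 FPKM at 12 am. Control averaged 65.4 FPKM of Acta2 at 8 pm, against 126 FPKM at 4 pm and 64.0 FPKM at 12 am. The highest daily mean of Acta2 was at 12 pm in both genotypes, at 102 FPKM in cK15 and 140 FPKM in control.

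**Figure D5:**
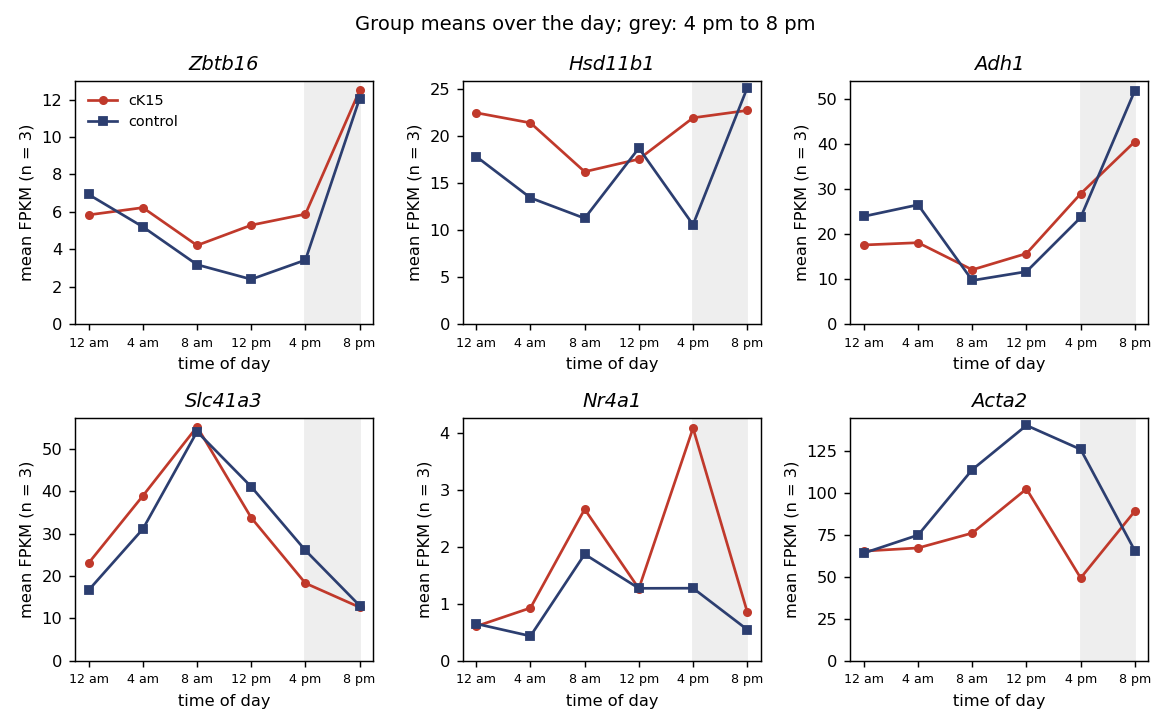
Mean FPKM (n = 3 libraries) of 6 genes at the 6 times of day in cK15 (red circles) and control hearts (blue squares), with the step from 4 pm to 8 pm in grey. Zbtb16 and Adh1 have their highest mean at 8 pm in both genotypes, Slc41a3 its highest at 8 am, and Hsd11b1 in control is at 10.6 FPKM at 4 pm and 25.1 FPKM at 8 pm.

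The number of calls differed among the other 5 steps of the day. In cK15 hearts it was 1 from 12 am to 4 am (0.00943%), 0 from 4 am to 8 am (0%), 9 from 8 am to 12 pm (0.0849%), 4 from 12 pm to 4 pm (0.0377%) and 13 from 8 pm to 12 am (0.123%). In control hearts the same steps had 2 (0.0189%), 19 (0.179%), 10 (0.0943%), 6 (0.0566%) and 10 calls (0.0943%). The difference between genotypes had 0 calls in each of these 5 steps by limma, with 172 to 272 genes at an unadjusted p under 0.05.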

How the data were processed

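RNA of the heart apex was sequenced in 36 libraries, 3 for each of 2 genotypes at 6 times. Per the labels' protocols, ribosomal RNA was removed from 1 ug of total RNA by Ribo-Zero, and stranded TruSeq libraries, pooled by 3, were read as 100 bp pairs. The submitters' processing notes name GSNAP, HTSeq and mm10. No source used here gives their versions or roles. The authors deposited FPKM in a table per genotype. Ciart and RNA of the mitochondrial genome were not analysed here, nor were entries with a date as symbol (27) or a repeated symbol (2) named.

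Genes with a mean of at least 1 FPKM over the 36 libraries (10599) and Klf15 were tested on the log2(FPKM + 1) scale with limma 3.58.1 (R 4.3.3), using 12 group means, 24 residual degrees of freedom and trended, robust variance moderation. P-values were adjusted by Benjamini-Hochberg over all genes tested, threshold 0.05. The fit was tested on simulated data with known changes. Contrasts were the step in each genotype, their difference and, added later, their mean. Genes were called separate by time where the 3 libraries of 8 pm did not overlap the 3 of 4 pm. Low values under 0.4 FPKM gave relative depths from their commonest ratio to control 4 pm replicate 3. Promoters came from RefSeq and positions from GENCODE M21 (GRCm38), not stated to be the authors' annotation. The members and lists were chosen with earlier results of these data known. Named genes are Klf15, all clock genes, up to 10 called genes a direction per genotype without overlap, up to 3 called genes a list, and the difference calls or the 6 smallest p; all other genes were chosen after their values were seen, and 1 gene is not reported here. Alternatives were other pseudocounts, filters, scalings, library subsets, a replicate block, a term for the library set and leaving out each library.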

Additional observations from a re-analysis of the deposited data

Results flagged for a closer look

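Rn45s, the precursor of ribosomal RNA, drew attention because its step differed between the genotypes in limma (adjusted p = 0.0246). That call was lost in 10 of the 12 fits that left out 1 library, with quantile normalization and without the 12 libraries of the low set. It was at 1004, 230 and 1044 FPKM in cK15 hearts at 8 pm, against 1066, 145 and 232 FPKM in cK15 hearts at 4 pm, and was listed at 0 in all 3 control libraries of 8 pm, against 270, 297 and 237 FPKM in control hearts at 4 pm. Values of Rn45s among libraries of the same group differ widely in cK15 hearts, and what set the listed 0 was not tested.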

How the results depend on the processing

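None of the 52 single-gene fold changes that were recomputed changed sign, while steps of other genes, such as Per1, Tef, Dbp and Arntl, were not recomputed. The median over all genes did change sign, between -0.011 and 0.033 in cK15 and between -0.03 and 0.014 in control. The count of 0 genes in cK15 became 2 with no filter on low values and 3 without the 12 libraries of the low set (Decr2 and Rps2 among them), and ran between 0 and 3 when single libraries were left out. The control count of 14 became 26 with median-ratio rescaling, 9 with only the 12 libraries of 4 pm and 8 pm, 23 with only the 18 control libraries, and 53 with the library set as a term, and ran between 3 and 16 when single libraries were left out. The difference count of 1 became 0 with quantile normalization, 2 with only the 12 libraries and 0 without the low set, and ran between 0 and 1 when single libraries were left out (0 in 10 of 12 fits). The count of 27 for the mean became 81 with the library-set term and ran between 16 and 33 when single libraries were left out. Deviations from the group mean had correlations between -0.322 and 0.315 in same-numbered libraries of 8 pm and 4 pm. The highest, 0.441 in cK15 and 0.482 in control, joined the libraries that stood apart, whose numbers differ between the times. These correlations therefore cannot show whether the numbers pair libraries. The replicate block gave 0 in cK15, 32 in control, 1 for the difference and 50 for the mean. The absolute depth is unknown, so counting error could not be given.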

Other observations

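Klf2, a relative of Klf15 and a factor of vessel lining cells, had the lower mean at 8 pm in cK15 and the higher mean at 8 pm in control, and was not called. It was at 0.775, 1.81 and 1.87 FPKM in cK15 hearts at 8 pm, against 3.02, 1.68 and 1.83 FPKM in cK15 hearts at 4 pm, and at 2.19, 1.61 and 1.53 FPKM in control hearts at 8 pm, against 0.162, 0.880 and 1.12 FPKM in control hearts at 4 pm. Its times overlapped in cK15 and not in control. Ppargc1a, a coactivator of mitochondrial genes, was separate by time in both genotypes without a call, at 23.4, 25.1 and 22.3 FPKM in cK15 hearts at 8 pm, against 21.3, 16.6 and 20.04 FPKM in cK15 hearts at 4 pm, and at 21.3, 22.2 and 19.4 FPKM in control hearts at 8 pm, against 15.7, 14.5 and 17.2 FPKM in control hearts at 4 pm. Across the 10600 genes the steps of the 2 genotypes, which share no libraries, had a Pearson correlation of 0.149, a description over genes that are not independent replicates.

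The 4 neutrophil markers in the tables summed to 0.10896 to 0.28067 FPKM in cK15 hearts at 8 pm, against 1.4443 to 5.3526 FPKM in cK15 hearts at 4 pm, and to 0.39037 to 3.9179 FPKM in control hearts at 8 pm, against 3.912 to 5.5985 FPKM in control hearts at 4 pm. The times were separate in cK15 and overlapped by 1 library in control. S100a8 and S100a9, subunits of calprotectin, were listed at 0 in all 3 cK15 libraries of 8 pm, and the marker genes had low levels in all 12 libraries.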
